A study of Mus musculus with 12 samples.

Results

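Of the neurotrophin, GDNF and related growth factor receptors, 5 genes passed the detection threshold in the mouse neuroblastoma line N18, where 53.2% of all genes and targets on the array did. These were Ngfr, Ret, Ntrk3, Gfra1 and Alk. Of the 9 genes described, these 5 were called higher in N18 than in the microglial line BV2 and 3 lower. The shares of all genes and targets were 19.0% higher and 21.9% lower. As lower bounds from plate means, which leave out the spread between plates, Ngfr was 14.9-fold higher in N18 than in BV2 and Ret 12.9-fold. Taken over all of their probes, Ntrk2 and Kit passed the detection threshold in none of the 3 lines. The genes described were listed by name as a receptor family (Ntrk2, Ntrk3, Ngfr, Ret, Gfra1, Gfra2, Gfra3, Alk and Kit), by a rule that holds no measured value, and all 9 were found among the 17277 named genes of the array. They were measured by 33 probes for 11 target transcripts, since Ntrk2 and Ntrk3 each had a pair of targets and the other genes 1 each.

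The study was an mRNA survey of cell lines used to express receptors. Total RNA came from 3 mouse lines, each labelled as 4 biological replicates (here called plates) and hybridised to 1 NimbleGen array per plate, 12 arrays in all. AtT20 derives from a pituitary tumour, BV2 is an immortalised microglial line and N18 is a neuroblastoma line. All plates were untreated and kept under basal conditions in the same serum-supplemented medium, and each group is 1 established line, so a difference between groups is a difference between those lines.

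Neurotrophins act through the Trk receptor tyrosine kinases, TrkB (Ntrk2) for BDNF and TrkC (Ntrk3) for neurotrophin-3, and through the pan-neurotrophin receptor encoded by Ngfr, a death domain protein of the TNF receptor family that has no kinase. Ligands of the GDNF family bind co-receptors anchored in the membrane by a lipid, namely Gfra1 for GDNF, Gfra2 for neurturin and Gfra3 for artemin, and these pass the signal to the kinase Ret, which is needed for sympathetic and enteric nerve development. ALK is a receptor tyrosine kinase known for activating mutations in neuroblastoma, and Kit, the stem cell factor receptor, is known from mast cells, melanocytes and blood progenitors.

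The level of a gene is given throughout as the log2 of the mean intensity of its probes minus the mean of 10 seminal protein genes on the same plate, which serve as genes not expected in these lines. A gene passed in a line when its mean level over the 4 plates exceeded 2 SD of the seminal proteins. That threshold averaged 0.38 ± 0.10 (SD, n = 4) for the plates labelled AtT20, 0.65 ± 0.16 for BV2 and 0.75 ± 0.11 for N18. Since probes differ in brightness, levels were compared for the same gene between lines and not between genes. The exceptions are the threshold, which sets each gene against the seminal protein genes, and the means of marker lists, which pool genes. In RNA from whole plates, fewer cells carrying a transcript and less RNA per cell cannot be told apart.

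The labels were checked against marker genes. Of 15 neuroblastoma markers, 12 passed in N18, 6 in BV2 and 7 on the AtT20 plates, and of 9 microglia and macrophage markers, 7 passed in BV2, 1 in N18 and 0 on the AtT20 plates. Of all genes and targets, 53.2% passed in N18, 47.5% in BV2 and 32.9% on the AtT20 plates. These shares also stand beside the pass counts of the other marker lists. Aif1 and Cx3cr1, both used to define microglia, were below the threshold in BV2. Of 7 corticotroph markers only Pitx1 passed on the AtT20 plates (0.45), against 1 in BV2 (Tbx19 at 1.38) and 3 in N18 (Crhr1 at 3.09, Tbx19 at 1.39 and Pitx1 at 0.77). Pomc, the hormone precursor that defines corticotrophs, was at 0.27 ± 0.25 (SD, n = 4) on the AtT20 plates. The list therefore did not mark these arrays, and they are called by their label. Intensities on the AtT20 plates also spanned a narrow range, with an interquartile range of 0.38 to 0.78 on the log2 scale against 1.28 to 1.73 in BV2 and 1.91 to 2.21 in N18. There were 4 arrays to a slide and the slide of each plate is not known here, so slide and line cannot be told apart, and p-values measure only the spread between plates.

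For the members that were higher in N18, the 250 bases before the annotated start are shown where a RefSeq window (GRCm38.p6) was at hand, because each of these genes was higher in N18 than in BV2. Windows were used for 5 of the 9 members, and those of members higher in N18 are written out. They are Ngfr at chr11:95587699-95587948, Gfra1 at chr19:58455399-58455648 and Alk at chr17:72604308-72604557, each on the minus strand and written 5′ to 3′, with capitals marking the GC box (GGGCGG or its reverse complement CCGCCC).
Ngfr: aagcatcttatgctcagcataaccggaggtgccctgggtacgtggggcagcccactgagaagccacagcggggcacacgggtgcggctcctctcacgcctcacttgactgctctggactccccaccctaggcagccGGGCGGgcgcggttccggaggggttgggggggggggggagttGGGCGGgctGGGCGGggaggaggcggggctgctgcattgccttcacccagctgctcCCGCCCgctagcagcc
Gfra1: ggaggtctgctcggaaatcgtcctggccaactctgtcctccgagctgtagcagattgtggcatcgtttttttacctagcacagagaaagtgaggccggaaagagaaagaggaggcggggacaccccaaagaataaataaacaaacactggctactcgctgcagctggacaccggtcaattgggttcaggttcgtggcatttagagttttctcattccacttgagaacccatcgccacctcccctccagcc
Alk: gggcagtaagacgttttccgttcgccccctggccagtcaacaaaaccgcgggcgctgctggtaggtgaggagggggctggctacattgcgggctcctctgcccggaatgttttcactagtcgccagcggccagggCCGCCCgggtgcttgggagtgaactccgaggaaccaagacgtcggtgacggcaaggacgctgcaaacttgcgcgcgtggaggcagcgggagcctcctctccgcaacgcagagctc
The Ngfr window had 4 GC boxes and a GC content of 70.4%, the Alk window 1 GC box and 65.2%, and the Gfra1 window no GC box and 52.4%. Ngfr and Gfra1 each held 1 E-box CAGCTG, and none of these windows held TATAAA or the homeodomain core TAATTA, all searched on both strands. Among 32851 windows of the same length from all genes, 32.7% held a GC box, 13% CAGCTG, 12.4% TATAAA and 4.8% TAATTA, and the median GC content was 52.4%. The windows of Ntrk2 and Kit, which passed in no line, held 0 and 1 GC boxes at a GC content of 62.8% and 70.8%. Kit had 2 listed starts, of which the first by coordinate was used. GC boxes were thus found in Ngfr and Alk, which passed in N18, and in Kit, which did not.

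Ngfr, the pan-neurotrophin receptor, was at 5.29, 5.39, 4.91 and 5.02 on the N18 plates. It was at 0.07, -0.08, 0.01 and -0.12 in BV2. It was at 0.14, 0.12, -0.06 and -0.10 on the AtT20 plates. All N18 plates were far above all others, and the plates of the other lines lay at the mean of the seminal proteins and overlapped each other. The mean levels were 5.15 ± 0.23, -0.03 ± 0.09 and 0.02 ± 0.12 (SD, n = 4) for N18, BV2 and AtT20. All 3 probes took part, at 5.87, 4.01 and 4.99 in N18, and none of them passed in either of the other lines.

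Ret, the kinase shared by the GDNF family co-receptors, was at 4.91, 5.42, 5.02 and 4.75 in N18. It was at 0.66, 0.59, 0.63 and 0.65 in BV2. The AtT20 plates gave 0.44, 0.60, 0.35 and 0.51. N18 was again apart from the rest on every plate, BV2 and AtT20 touched at 1 plate, and its 3 probes were at 5.09, 5.10 and 4.87. The mean of 0.63 ± 0.03 in BV2 fell just short of the threshold of 0.65, and the mean of 0.47 ± 0.11 on the AtT20 plates (SD, n = 4) just passed the lower threshold of 0.38, although BV2 had the higher level, so the opposite calls in these lines came from their thresholds. The AtT20 call of Ret was lost under 3 of 8 alternative rules, and BV2 gained it under 5.

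Ntrk3, the receptor for neurotrophin-3, was at 2.13, 2.55, 1.88 and 1.91 in N18. It was at 0.05, -0.12, 0.00 and -0.08 in BV2. The AtT20 plates gave 0.07, 0.21, 0.18 and 0.18. N18 lay above all other plates and passed on 6 of 6 probes, from 1.22 to 2.85, for a mean of 2.12 ± 0.31 (SD, n = 4).

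Gfra1, the GDNF co-receptor, was at 2.45, 2.96, 2.55 and 2.73 in N18. It was at 0.59, 0.53, 0.71 and 0.65 in BV2. The AtT20 plates gave -0.12, -0.34, -0.23 and -0.13. The order N18, BV2, AtT20 held without overlap between plates. The BV2 mean of 0.62 ± 0.08 was just under the threshold, where probes 1 and 2 were at 0.95 and 0.91 and probe 3 at -0.35. In N18 all 3 probes passed, at 2.96, 3.11 and 1.37.

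Alk was at 2.35, 2.57, 2.24 and 2.28 in N18. It was at 0.68, 0.46, 0.56 and 0.22 in BV2. On the AtT20 plates it was at 0.54, 1.16, 0.28 and 0.52. N18 was above every other plate, while BV2 and AtT20 overlapped. Only 2 of 3 probes passed in N18, at 3.27 and 2.29, and the third was at -0.29. On the AtT20 plates the mean of 0.62 ± 0.38 (SD, n = 4) passed, but plate 3 was below the threshold of the line. Of the 5 genes that passed in N18, plate 2 held the highest level of each, and after the arrays were brought to the same distribution of intensities among these 5 it was highest for Ntrk3 only.

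**Figure D1:**
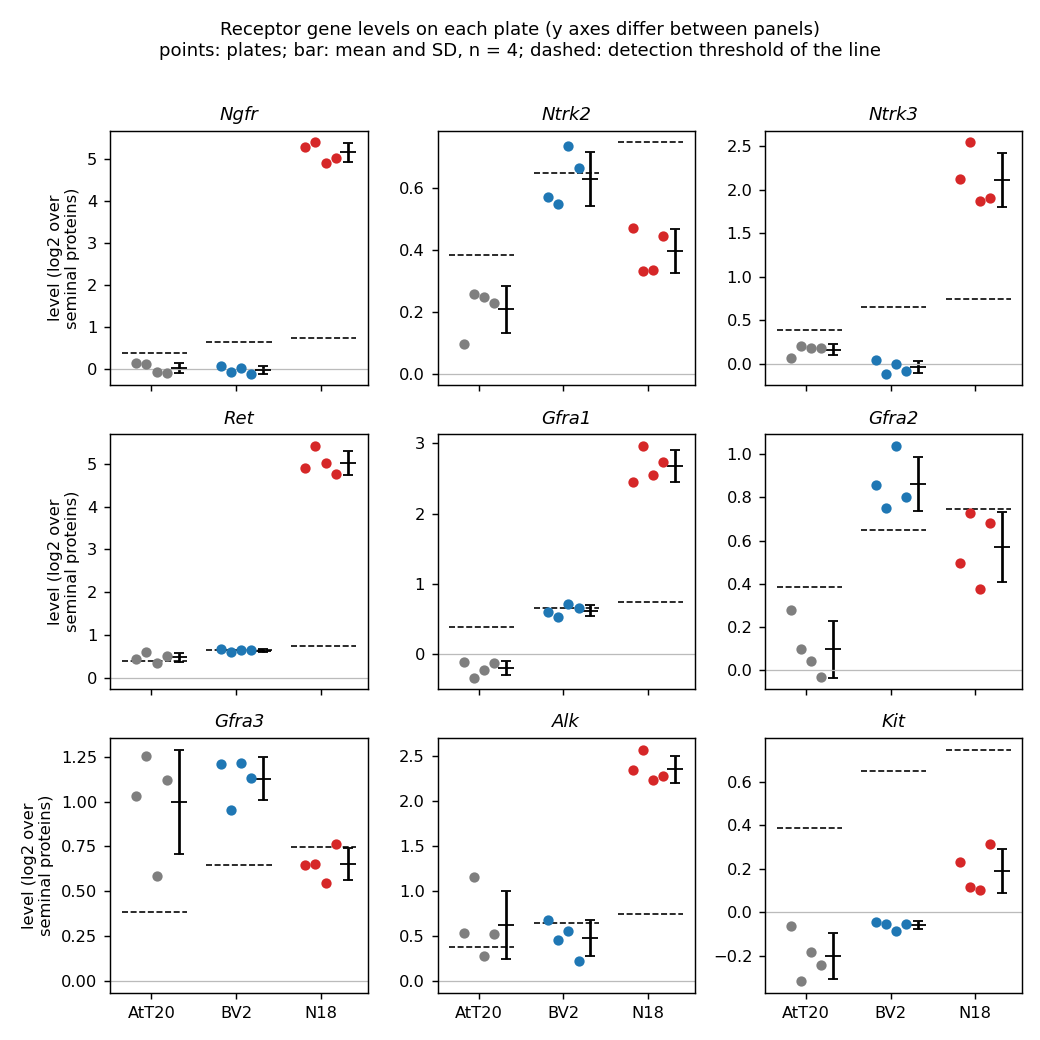
Level of each of the 9 receptor genes on every plate (log2 over the mean of 10 seminal proteins on the plate), with the mean and SD of the 4 plates of each line and the detection threshold of the line. Ngfr and Ret lie near 5 in N18, Ntrk3, Gfra1 and Alk between 1.88 and 2.96, and all other values at 1.25 or below.

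Gfra2, the neurturin co-receptor, was at 0.86, 0.75, 1.04 and 0.80 in BV2, where its mean of 0.86 ± 0.12 passed (SD, n = 4). It was at 0.50, 0.73, 0.38 and 0.68 in N18, with a mean of 0.57 ± 0.16. The AtT20 plates gave 0.28, 0.10, 0.04 and -0.03. The order BV2, N18, AtT20 held without overlap, although BV2 and N18 were at 0.75 and 0.73 on their nearest plates. The BV2 call rested on 1 of 3 probes, which was at 1.94 there and at 1.44 in N18, and the other probes were below 0 in both lines. Taken as the median of its probes, Gfra2 in BV2 was at -0.16 and did not pass.

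Gfra3, the artemin co-receptor, was at 1.21, 0.96, 1.21 and 1.13 in BV2. On the AtT20 plates it was at 1.03, 1.25, 0.58 and 1.12. It was at 0.65, 0.65, 0.55 and 0.76 in N18, where only plate 4 exceeded the mean threshold of the line and the mean of 0.65 ± 0.09 (SD, n = 4) did not pass. BV2 and AtT20 passed and overlapped, and every BV2 plate was above every N18 plate, while AtT20 plate 3 lay among the N18 plates. Probe 3 gave most of the level in each line, at 2.09 in BV2, 1.67 on the AtT20 plates and 1.29 in N18, and it was the only probe that passed in BV2 and in N18. The BV2 call of Gfra3 was lost with the median of probes (0.55 against a threshold of 0.60) and with olfactory receptor genes as controls (0.94 against 1.02).

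Ntrk2 and Kit were the members that passed nowhere. Ntrk2, the BDNF receptor, was at 0.57, 0.55, 0.74 and 0.66 in BV2, at 0.47, 0.33, 0.34 and 0.44 in N18 and at 0.10, 0.26, 0.25 and 0.23 on the AtT20 plates. Its BV2 mean of 0.63 ± 0.09 was within the SD of that line's threshold, 1 of its 2 targets passed there (0.68 ± 0.13, SD, n = 4, on 3 of 4 plates) and single probes did, with the highest at 1.17 in BV2 and 1.15 in N18. Kit was at 0.23, 0.11, 0.10 and 0.31 in N18, at -0.04, -0.05, -0.09 and -0.06 in BV2 and at -0.07, -0.32, -0.18 and -0.24 on the AtT20 plates. The plates of the 3 lines did not overlap for Ntrk2, and for Kit the N18 plates were above all others. No Kit probe passed in any line.

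**Figure D2:**
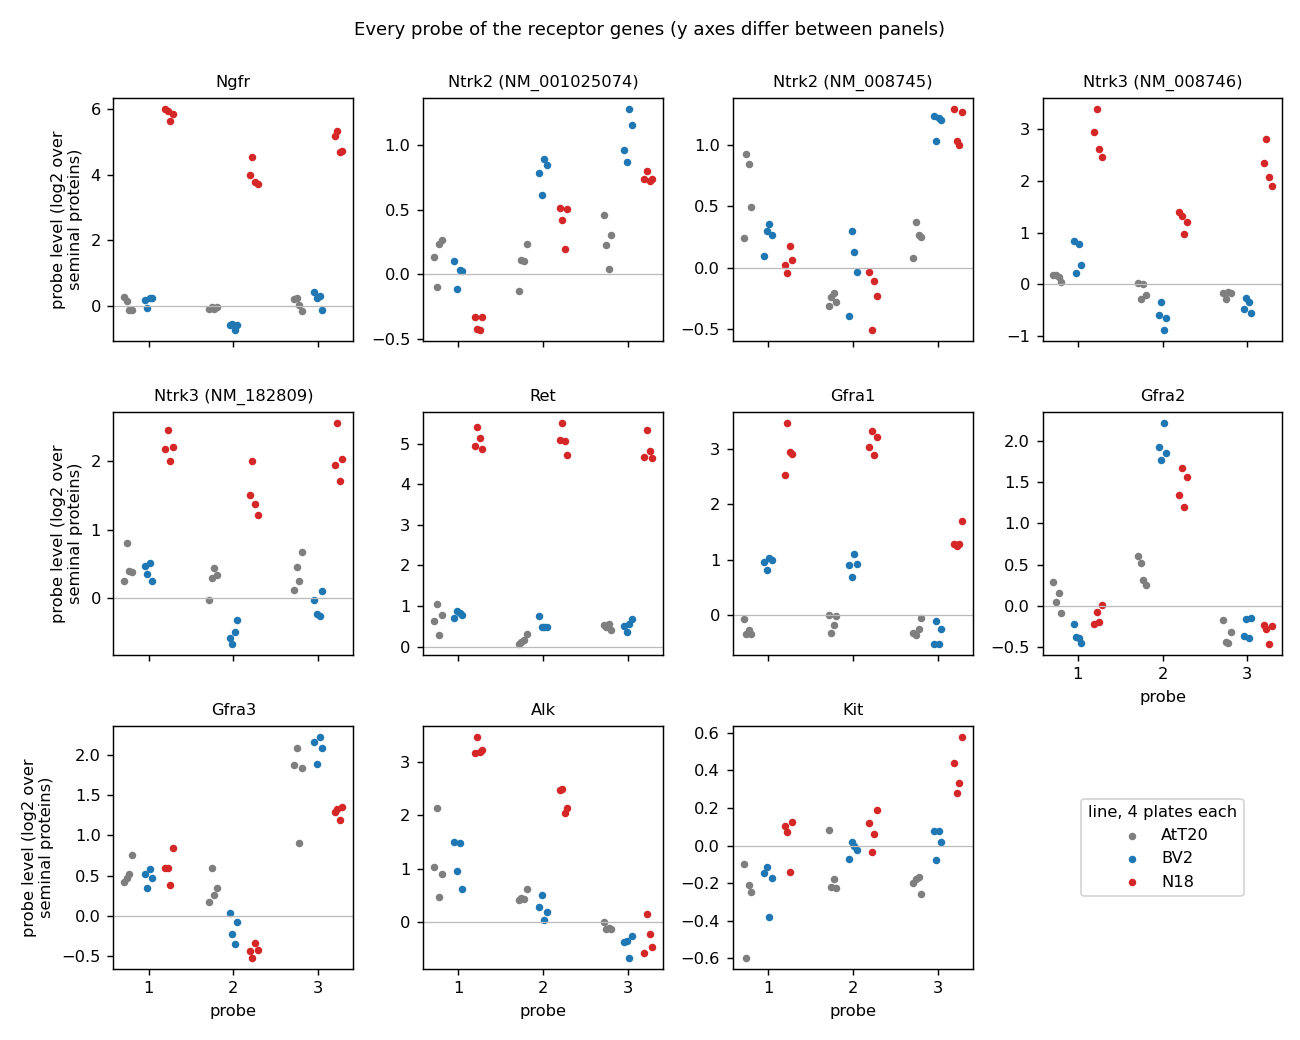
Level of each of the 33 probes on each of the 4 plates of each line (log2 over the seminal proteins), grouped by gene and target. All probes of Ngfr, Ret, Ntrk3 and Gfra1 were raised in N18, while Gfra2 and Gfra3 each had a single probe above 1.

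By count, 5 of 9 members passed in N18, 2 in BV2 (Gfra2 and Gfra3) and 3 on the AtT20 plates (Ret, Gfra3 and Alk). Over the 25128 named genes and unnamed targets, 53.2% passed in N18, 47.5% in BV2 and 32.9% on the AtT20 plates, so the share of members that passed in N18 was close to that of all genes and the BV2 share was below it. The BV2 count depended on the controls and the threshold. It fell to 0 with olfactory receptor genes as controls, where the AtT20 count fell to 1, and to 1 at 3 SD. With Svs3a alone standing for Svs3, a choice made after seeing the data, the BV2 threshold was 0.56 and 5 members passed, Ntrk2, Ret and Gfra1 in addition. Without BV2 plate 3 the same count of 5 was reached.

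N18 was then compared with BV2 in limma on quantile-normalised values of all 12 arrays, with Benjamini-Hochberg adjustment over all 25128 entries and a call at an adjusted p under 0.05. Ngfr was 4.51 higher in N18 (log2 difference, 95% interval 4.21 to 4.81, adjusted p = 2.83e-13) and Ret 3.74 higher (3.48 to 4.01, adjusted p = 4.65e-13). Normalised Ngfr values ran from 14.42 to 14.77 in N18 and from 9.95 to 10.14 in BV2, without overlap. Because the 5 genes were below the threshold in BV2, the fold was also computed as a lower bound, against the higher of the gene's own value and the threshold on each BV2 plate, and the smallest bound of 3 scalings was taken. This bound comes from plate means and leaves out the spread between plates, so the low end of a 95% interval can lie below it.

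Ntrk3 differed by 1.42 (1.16 to 1.68, adjusted p = 8.34e-08, limma), with a bound of 1.7-fold. Both of its targets were higher in N18, by 1.55 and 1.29. Gfra1 differed by 1.28 (1.05 to 1.52, adjusted p = 7.88e-08, limma), with a bound of 2.3-fold. Alk differed by 1.13 (0.88 to 1.38, adjusted p = 7.08e-07, limma), with a bound of 1.9-fold. The 5 genes higher in N18 were higher under all 9 alternatives of normalisation, probe summary, filter and fit. Measured over the seminal proteins without quantile normalisation, the same differences were larger, at 5.18 for Ngfr, 4.39 for Ret, 2.15 for Ntrk3, 2.05 for Gfra1 and 1.88 for Alk.

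The co-receptors Gfra3 and Gfra2 and the kinase Ntrk2 were lower in N18 than in BV2. Gfra3 differed by -0.66 (-0.90 to -0.43, adjusted p = 1.29e-04, limma), with a bound of 1.2-fold higher in BV2. With the median of probes it differed by -0.092 and was not called (adjusted p = 0.706, limma). Gfra2 differed by -0.50 (adjusted p = 0.0124), and with the median of probes it differed by 0.051, with the sign turned and no call. Ntrk2 differed by -0.39 (adjusted p = 0.0218), from values below the threshold in both lines, and its targets differed by -0.48 and -0.31, of which the second was not called (adjusted p = 0.214). The Ntrk2 call was lost on leaving out BV2 plate 2 or 3 or N18 plate 2 or 3, and that of Gfra2 on leaving out BV2 plate 3 (adjusted p = 0.0507, limma).

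Kit differed by 0.11 (-0.08 to 0.30, adjusted p = 0.339) and was not called, and over the seminal proteins it differed by 0.25 (adjusted p = 0.00923), with all values below the threshold. In all, 5 of 9 members were higher and 3 lower, where 19.0% of all entries were called higher and 21.9% lower (40.9% called in either direction). The split of all entries depended on the scaling, with 4775 higher and 5495 lower after quantile normalisation, 9594 and 3457 over the seminal proteins and 7714 and 1905 without normalisation. The median difference of all entries moved likewise, from -0.06 after quantile normalisation to 0.17 over the seminal proteins and 0.15 without normalisation, so the members' differences of 1.13 and more are large beside that shift and those of Ntrk2 and Gfra2 are not.

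**Figure D3:**
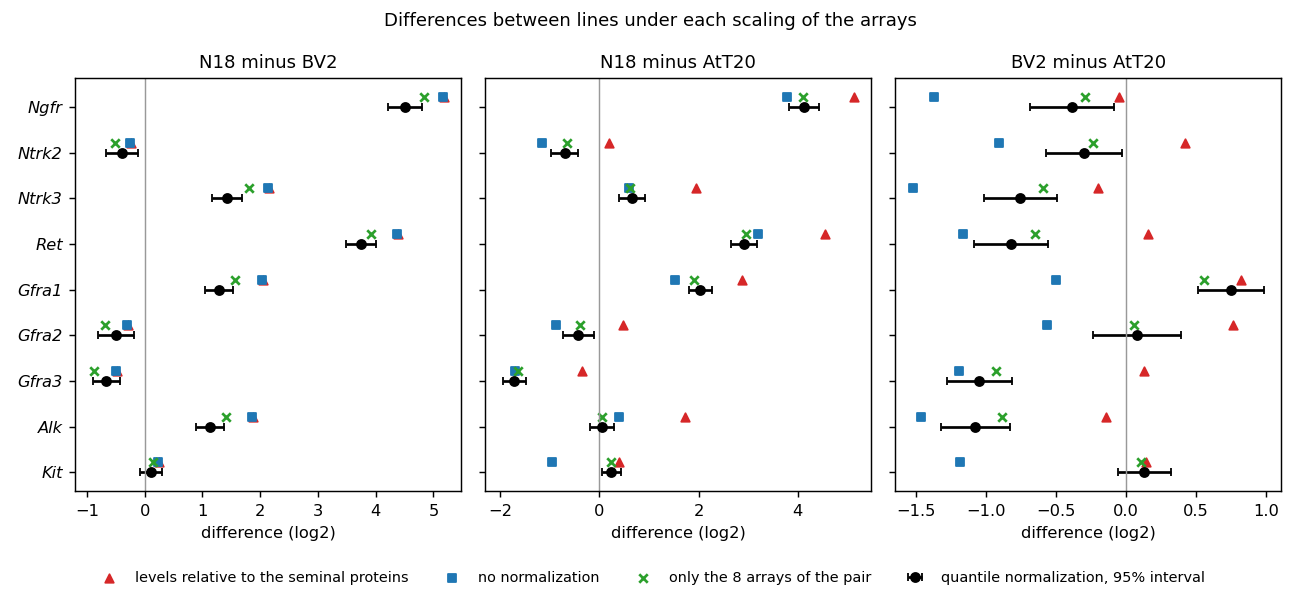
Log2 difference of each receptor gene between each pair of lines after quantile normalisation, with 95% intervals from limma, and the same difference taken over the seminal proteins. N18 minus BV2 is at 4.51 for Ngfr and 3.74 for Ret after quantile normalisation, and the scales part most in the comparisons with the AtT20 plates.

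The comparisons with the AtT20 plates use the same N18 and BV2 arrays, and their signs depended on the scaling. After quantile normalisation 27.8% of all entries were higher and 48.6% lower in N18 than on the AtT20 plates (76.4% called). These were 6981 and 12211 entries, against 14788 and 4532 over the seminal proteins and 5012 and 15846 without normalisation. The median difference of all entries was -0.25, 0.49 and -0.85 on these scales. Ngfr, Ret and Gfra1 were higher in N18 on the scales over the seminal proteins and after quantile normalisation, by 5.13 and 4.12, by 4.55 and 2.92 and by 2.88 and 2.03. The lower bounds from plate means were 9.1-fold for Ngfr and 1.4-fold for Gfra1. Ntrk3 was higher by 1.95 and 0.66, the latter from 1.26 and 0.069 for its targets, and Alk by 1.74 over the seminal proteins but by 0.053 after quantile normalisation (-0.20 to 0.30, adjusted p = 0.693, limma). Gfra3 was lower in N18 on both scales (-0.34 and -1.71). For Ntrk2 (0.19 and -0.70) and Gfra2 (0.47 and -0.42) the sign turned. Kit differed by 0.39 and 0.24, and by -0.96 without normalisation.

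Between BV2 and the AtT20 plates the smaller differences mostly changed with the scale. Gfra1 was higher in BV2 over the seminal proteins and after quantile normalisation, by 0.82 and 0.75, and lower (-0.50) without normalisation. Ntrk2, Ret and Gfra3 changed sign between the former scales, at 0.42 and -0.30, 0.16 and -0.82, and 0.13 and -1.05. Alk differed by -0.14 and -1.08, Ntrk3 by -0.20 and -0.76 and Ngfr by -0.05 and -0.38, and none of these was called over the seminal proteins. Gfra2 differed by 0.77 and 0.08 and Kit by 0.14 and 0.13, Kit without a call on either scale. After quantile normalisation 1 member was called higher and 6 lower, where 26.6% and 47.0% of all entries were (73.6% in either direction). The lower count ranged from 4 to 6 on leaving out a plate, and the Ntrk2 call (adjusted p = 0.0432, limma) was lost in 9 of 12 such fits and under 4 of 8 alternatives, with its sign turned under 1 of the others. Of all entries 6687 were higher and 11808 lower, against 12162 and 4870 over the seminal proteins and 2940 and 18762 without normalisation, and the medians of all entries were -0.23, 0.25 and -1.08.

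Of the ligands of these receptors, 0 of 4 neurotrophins, 2 of 4 GDNF family ligands and 1 of 3 ligands of Alk, Ltk and Kit passed in N18, and 1 of each list in BV2. The shares of all entries that passed were 53.2% in N18 and 47.5% in BV2. Of the neurotrophins, Bdnf, Ntf3 and Ntf5 did not pass in N18 or BV2, with differences of 0.086, -0.12 and 0.094 that were not called. None of the 4 GDNF family ligands was called between N18 and BV2, with differences of -0.17 for Gdnf, 0.31 for Nrtn, -0.22 for Artn and -0.11 for Pspn, and Gdnf passed in N18 and in BV2 and Nrtn in N18. Kitl, the ligand of Kit, was lower in N18 (-0.51) with both lines below the threshold. Mdk, a growth factor proposed as a ligand of Alk, passed in both lines, at 0.99 in N18 and 1.04 in BV2, and was lower in N18 (-0.36), a call lost under 5 of 9 alternatives, with -0.047 over the seminal proteins and -0.067 without normalisation. Ptn, proposed likewise as a ligand of Alk, differed by 0.07 and was not called.

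Among 11 further receptors and co-receptors, 5 were higher in N18, 2 lower and 4 not called, with a median difference of -0.008 beside -0.06 for all entries. Of all entries 19.0% were higher and 21.9% lower, shares that also stand beside the counts of the lists that follow. Ncam1, an adhesion molecule that binds GDNF with Gfra1, was higher by 1.25, Sort1, which pairs with the Ngfr product as receptor for proneurotrophins, by 1.23 and Ltk, the kinase closest to Alk, by 1.09. Sorl1, a sorting receptor, was lower (-2.34). Sorcs3 was also lower (-0.37), from values below the threshold in both lines. Its call was lost under 4 of 8 alternatives and in 2 of 12 fits that left out a plate. Of the kinases related to Kit, Csf1r, the receptor that microglia need for survival, was lower (-4.74), Pdgfra and Pdgfrb were higher by 1.36 and 0.84, and Flt3 differed by -0.12 and was not called.

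Of 23 adaptors that carry the signal inward, 12 were higher in N18, 2 lower and 9 not called, with a median difference of 0.40 beside -0.06 for all entries. Bex3, which binds the Ngfr death domain, was higher by 4.01, Plcg1, the phospholipase docked by Trk receptors, by 1.87 and Frs2, a docking protein of Trk and Ret, by 1.70. Gab2 (-1.63) and Rapgef1 (-0.64) were lower, and the Rapgef1 call was lost under 3 of 9 alternatives. Of 11 negative regulators, 8 were higher, 2 lower and 1 not called, with a median of 1.5. Spry1, an inhibitor of Ras signalling downstream of Ret, was higher by 3.23, the phosphatase gene Ptprf by 3.05 and Spred2 by 2.30. Ptpn6, a phosphatase of blood cells, was lower (-3.47), as was the ubiquitin ligase gene Cbl (-0.48), whose sign turned to 0.15 over the seminal proteins and 0.13 without normalisation.

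Of 12 genes induced through Ras and MAP kinase, 6 were higher, 3 lower and 3 not called, with a median of 0.42. The ETS factors Etv4 and Etv5, which follow Ret signalling, were higher by 1.99 and 1.80, and Vgf, a neuropeptide precursor induced by neurotrophins, by 1.98. The immediate early genes Junb, Fosl1 and Fos were lower in N18 (-2.70, -1.82 and -1.16). The direction within this list was therefore not shared.

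**Figure D4:**
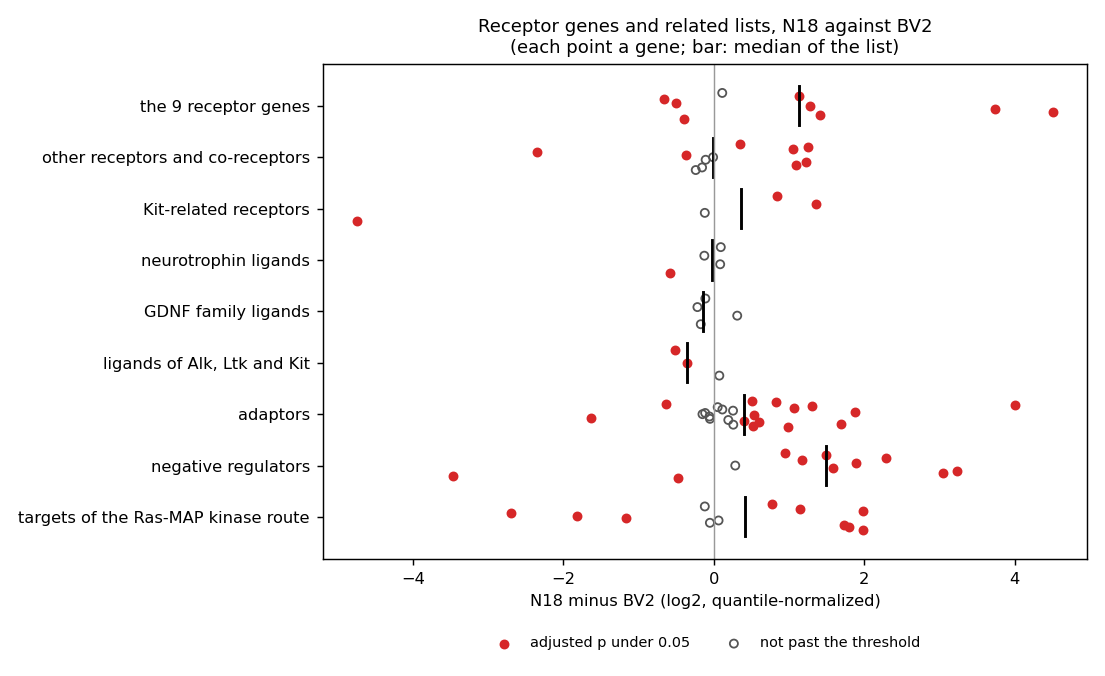
Log2 difference N18 minus BV2 of every measured gene in the lists of ligands, receptors, adaptors, negative regulators and targets (1 point a gene, called and not called marked apart), with the list median. The medians are 1.5 for negative regulators, 0.42 for targets, 0.40 for adaptors, 0.36 for Kit-related receptors and -0.008 for other receptors. Those of the ligand lists lie below 0.

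Markers of other cells were set beside the members that separate the lines. The mean of a marker list is the log2 of the linear-scale mean of its genes on a plate. The highest genes therefore weigh most. For the 15 neuroblastoma markers it was 3.00 to 3.40 in N18, 0.48 to 0.73 in BV2 and 1.31 to 2.30 on the AtT20 plates. On the AtT20 plates Nefl was at 4.43. Of these markers, 10 were higher in N18 than in BV2, Tubb3 by 3.05 and Stmn2 by 2.88. Nefm, Th and Nefl were lower (-0.51, -0.48 and -0.35). Nefl was below the threshold in both lines. Its call was lost under 4 of 9 alternatives and in 4 of 12 fits that left out a plate. The calls of Nefm and Th were each lost under 3 of 9 alternatives. The mean of the 9 microglia markers was 3.38 to 4.11 in BV2 and 0.23 to 0.40 in N18. For Ngfr, which Schwann cells also carry, 2 of 4 Schwann cell markers passed in N18 and 1 in BV2. S100b was below the threshold in both lines. Of the 4 markers, 1 was called higher in N18 than in BV2 and 1 lower. Their mean was 0.88 to 1.02 in N18 and 0.25 to 0.54 in BV2. Of 6 fibroblast markers 3 passed in N18 (Pdgfra at 2.84, Col1a1 at 1.41 and Dcn at 0.84) and 1 in BV2 (Pdgfra at 0.72), with means of 1.04 to 1.43 and 0.20 to 0.41, and Col1a1 and Pdgfra were higher in N18, by 0.46 and 1.36, with the other markers not called. Of 5 mast cell markers, listed for Kit, 2 passed in N18 and 3 in BV2, with means of 0.67 to 1.06 and 0.70 to 1.06. The part of these other cell types in the members' levels was not tested.

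For each member that passed in some line, the genes with the most similar profile over the 12 arrays after quantile normalisation were listed from 11654 named genes that passed somewhere. This is a description without a test, and the 12 points come from 3 lines, 4 plates each. The profiles depend on the scaling of the AtT20 plates. For Alk, N18 minus AtT20 was 0.053 on this scale and 1.74 over the seminal proteins. Ngfr was followed most closely by Disp2 (Pearson r = 0.997), Dpysl3 (0.996) and Cdc42ep1 (0.996), and Ret by Frmd4a (0.997), Tspan7 (0.996) and Asz1 (0.996). Ntrk3 was nearest to Fig4 (0.995), Eid2 (0.990) and Igfbp5 (0.989), Gfra1 to Zfp7 (0.992), Csnk1e (0.991) and Mpp3 (0.990), and Alk to Epha8 (0.992), Asphd2 (0.981) and Igfbp7 (0.980). Gfra3 was nearest to Amot, Tex19.1 and Mab21l4 (all 0.994), and Gfra2 had no neighbour above Ucp1 (0.926), followed by Asb12 (0.915) and Gne (0.894). Among the members themselves, Ngfr and Ret were the most alike (r = 0.981), Ntrk3 came near Ret (0.919), and Gfra1 and Gfra3 ran opposite (-0.928).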

How the data were processed

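Log2 Cy3 intensities of 72000 probes were deposited by the authors for the 12 arrays, with no sign of background subtraction or normalisation in the values. The array was designed on the MM8 build and no aligner applies. Targets carry RefSeq accessions, of which 17780 of 25631 (69.4%) matched a symbol in a RefSeq table (GRCm38.p6), giving 17277 genes. HEK293 arrays and quantitative PCR were not used here. Probes were averaged on the linear scale and targets of a gene on the log2 scale. Detection followed the methods' rule of 2 SD over 10 seminal proteins, with Svs3 the mean of Svs3a and Svs3b. Lines were compared with limma 3.58.1 (lmFit, eBayes with trend, R 4.3.3) after quantile normalisation, tested on simulated data. Alternatives were other normalisations (none, over the seminal proteins, normexp with offset 50), other probe summaries, olfactory receptor genes as controls, 3 SD, filters, a replicate block, only the 8 arrays of a pair, and leaving out each plate. Named genes were the 9 members, the 3 nearest profiles of each, and at most 3 genes a direction from each list (short lists whole). The members and lists were chosen with earlier results of these data known. Pomc, Aif1, Cx3cr1, Pitx1, S100b, Col1a1 and Dcn were named after their values were seen. Some list genes are not reported here. The number of arrays limits the precision.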

Additional observations from a re-analysis of the deposited data

How the results depend on the processing

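The 5 members that passed in N18 passed under every alternative and on leaving out any plate. Members passing in BV2 (2) became 0 with olfactory receptor genes as controls, 5 without the highest seminal protein, 1 at 3 SD and 5 with Svs3a alone, which was chosen after seeing the data, and ranged from 2 to 5 on leaving out a plate (5 without BV2 plate 3). AtT20 members (3) became 1 with olfactory receptor genes. Members lower in N18 than BV2 (3) became 1 without normalisation, 1 with the median of probes and 0 when a difference of at least 1 was required, and ranged from 1 to 3 on leaving out a plate. For N18 minus AtT20, members lower (3) became 1 over the seminal proteins and 1 at a difference of at least 1, where 3 were higher. For BV2 minus AtT20, members higher (1) became 0 without normalisation, 3 over the seminal proteins and 0 at a difference of at least 1, and ranged from 1 to 2 on leaving out a plate (2 without AtT20 plate 1), and members lower (6) became 0 over the seminal proteins and 2 at a difference of at least 1.

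Over all entries, N18 minus BV2 gave 7714 higher and 1905 lower without normalisation, 9594 and 3457 over the seminal proteins, 1378 and 1093 at a difference of at least 1, and 9062 lower on the 8 arrays of the pair. N18 minus AtT20 gave 14788 and 4532 over the seminal proteins, 3312 and 4571 at a difference of at least 1, and 6569 lower among genes that passed in some line. BV2 minus AtT20 gave 2940 and 18762 without normalisation, 12162 and 4870 over the seminal proteins, 3153 and 3949 at a difference of at least 1, and 6667 lower among genes that passed.

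Signs turned as follows, and the cause was not tested. Without normalisation, Cbl (N18 minus BV2) was at 0.13, Tex19.1 at 0.026, Kit (N18 minus AtT20) at -0.96, and for BV2 minus AtT20 Gfra1 was at -0.50, Gfra2 at -0.56 and Kit at -1.19. Over the seminal proteins, N18 minus BV2 was 0.15 for Cbl, 0.014 for Tbx19 and 0.047 for Tex19.1, N18 minus AtT20 was 0.19 for Ntrk2 and 0.47 for Gfra2, and BV2 minus AtT20 was 0.42 for Ntrk2, 0.16 for Ret and 0.13 for Gfra3. With the median of probes, the Gfra2 level in BV2 was -0.16, and Gfra2 differed by 0.051 (N18 minus BV2) and by -0.84 (BV2 minus AtT20), and Tex19.1 by 0.10.

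Replicate numbers were not treated as pairs. Of 12 same-numbered pairs, 3 correlated above 0.1 in their deviations (-0.105 to 0.319), and differently numbered pairs ran from -0.490 to 0.360. Deviations from the mean of 4 plates depend on each other, so these values cannot settle whether plates were paired. With the replicate number as a block, 5 members were higher and 3 lower in N18 than BV2, as without it, and 4779 and 5329 of all entries were.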
